A study of Homo sapiens with 6 samples.

Results

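GAS5 and the SNHG genes SNHG1, SNHG3, SNHG5, SNHG6, SNHG7, SNHG8, SNHG12, SNHG15 and SNHG16 are small nucleolar RNA (snoRNA) host genes, and they were followed through 24 h of cisplatin in HK-2 cells. The 10 genes were taken by their symbols from 28565 genes in the deposited table, and all 10 have a row there. None passed the test for a change at 24 h, in which libraries were not paired by number, and 2.94% of all tested genes passed it. SNHG7 came nearest, with a mean of 65.0 ± 1.34 (SD) CPM at 0 h and of 49.2 ± 3.17 (SD) CPM at 24 h, n = 3 each. CPM are counts scaled to equal library size. SNHG7 was the only one of the 10 whose libraries at the 2 times did not overlap. Of all tested genes, 22.6% were without such overlap, and 11.7% with 24 h lower.

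HK-2 is an established line of human proximal tubule epithelium. All 6 libraries, those at 0 h included, came from cells transfected with a plasmid that overexpresses a long noncoding RNA, named LncR2 in the titles. Cells were kept for 48 h after transfection, and how that time relates to the cisplatin exposure is not given in the labels. The 0 h group is 3 libraries labelled as exposed to cisplatin, a platinum drug that crosslinks DNA, for 0 h, and the 24 h group is 3 libraries labelled as exposed for 24 h. Total RNA was depleted of ribosomal RNA (rRNA) and made into directional libraries. Cells with a control vector were not analysed here, so no value below measures the effect of LncR2, and cisplatin cannot be told apart from time in culture. The row of LncR2 itself was not analysed here, so the overexpression was not checked.

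Nothing in the labels tells if replicates are separate cultures, and the series' design text speaks of 2 biological replicates per treatment, so p-values measure only the spread between these libraries. Total counts ran from 5028881 to 7248754 per library. By edgeR's quasi-likelihood test, 116 of 13389 tested genes rose and 278 fell at an adjusted p (Benjamini-Hochberg over all genes tested) under 0.05, which is here what "called" means. Those counts ran from 21 to 574 rises and from 92 to 923 falls when 1 library was left out, with the highest of both without 0 h replicate 3, which stood apart from the other 0 h libraries on the first principal component (1.28 against -23.8 and -24.5). Epithelial and tubule markers were present (KRT8 at 80.2 to 125 and PAX8 at 43.1 to 62.1 FPKM, fragments scaled to gene length and library size), but CDH1 was at 0.02 FPKM or less. Of 7 markers of mature proximal tubule, MIOX alone had a mean of at least 1 FPKM. No marker of leukocytes, endothelium or fibroblasts reached that level. In bulk RNA, fewer cells that express a gene and less of its RNA per cell cannot be told apart.

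A snoRNA host gene is transcribed as a long precursor whose introns hold snoRNAs. Splicing frees the introns, the snoRNAs are trimmed out of them and join proteins in the nucleolus, and there the box C/D class guides methylation of rRNA and the box H/ACA class guides its pseudouridylation. The joined exons form a second product, which in these genes encodes no well-known protein and is in many cases degraded in the cytoplasm by nonsense-mediated decay. Many hosts begin, like the mRNAs of ribosomal proteins, with a C and a run of pyrimidines, the 5′ terminal oligopyrimidine (TOP) motif, which ties translation and stability to growth signals. GAS5 was named for its accumulation in growth-arrested cells.

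The first 25 bases of 1 annotated transcript from each of 8 hosts show this start (GENCODE 29, GRCh38). Capitals mark a first C with all pyrimidines that follow it without a break, where there were at least 4. The 6 transcripts with capitals were picked to show the motif, and SNHG7-201 and SNHG15-203 stand for the only 2 hosts of the 10 with no such transcript.
GAS5-219: CTTTTCgaggtaggagtcgactcct
SNHG3-203: CCTTTTTggagacagattcgcagtg
SNHG5-212: CTTTTacgtcggccttcgcgagcgt
SNHG8-205: CTTTCacattcgggaagcgtcggga
SNHG12-209: CCTTTCTCCCCgccgcattcccggt
SNHG16-204: CTTTTCgaggtcggccgcgtggctg
SNHG7-201: ctctgcgtgcgccggaggctgccgt
SNHG15-203: tccactgagttgacacgcagacgca

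Of the 10 hosts, 8 had at least 1 annotated transcript that begins with C and at least 4 pyrimidines, against 6.58% of all 58676 genes in GENCODE 29. Over transcripts, the start was present in 21 of 129 from these hosts (16.3%) and in 2.41% of all 206694. Hosts with many annotated transcripts have more chances to hold such a start. SNHG7-201 opens with 4 pyrimidines, the first of them a C, 1 base short of the rule, and SNHG15-203 opens with a T. A match here is to the letters at an annotated start, and the start used in these cells was not measured.

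The snoRNAs inside the hosts are shown by 3 of each class, among them SNORA61 and SNORA44, whose libraries at the 2 times do not overlap below. For the box C/D snoRNAs SNORD27 (inside SNHG1), SNORD50B (inside SNHG5) and SNORD99 (inside SNHG12), capitals mark the letters GATGA, part of box C, and CTGA, box D. For the H/ACA snoRNAs SNORA73B (inside SNHG3) and SNORA61 (inside SNHG12), capitals mark the ACA that lies 3 bases from the end. SNORA44, also inside SNHG12, has no ACA in the last 10 bases of its annotated sequence and is shown without capitals.
SNORD27: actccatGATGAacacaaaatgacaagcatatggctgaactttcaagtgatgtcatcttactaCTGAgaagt
SNORD50B: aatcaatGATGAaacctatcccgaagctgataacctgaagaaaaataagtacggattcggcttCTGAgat
SNORD99: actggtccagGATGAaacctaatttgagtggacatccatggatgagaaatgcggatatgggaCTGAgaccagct
SNORA73B: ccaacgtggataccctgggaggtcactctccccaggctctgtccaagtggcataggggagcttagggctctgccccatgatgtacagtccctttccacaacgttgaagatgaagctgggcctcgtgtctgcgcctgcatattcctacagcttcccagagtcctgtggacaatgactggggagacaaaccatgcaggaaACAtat
SNORA61: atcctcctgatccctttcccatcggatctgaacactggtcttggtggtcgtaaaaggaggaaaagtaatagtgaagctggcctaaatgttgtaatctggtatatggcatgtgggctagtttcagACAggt
SNORA44: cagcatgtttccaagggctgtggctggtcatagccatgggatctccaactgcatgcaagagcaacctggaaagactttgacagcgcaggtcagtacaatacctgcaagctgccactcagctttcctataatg

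The 10 hosts were all expressed, at mean levels that spanned from 5.57 to 85.4 FPKM. The order, from the highest mean over the 6 libraries, was SNHG3 (85.4 FPKM), GAS5 (75.5), SNHG6 (70.2), SNHG1 (27.3), SNHG8 (24.8), SNHG16 (22.2), SNHG5 (11.3), SNHG12 (10.9), SNHG7 (7.99) and SNHG15 (5.57). Neighbours in that order overlapped in their range over libraries at all but 2 places, which split the hosts into 3 tiers. The first gap lay between SNHG6, at 53.7 FPKM or more, and SNHG1, at 31.0 FPKM or less, and the second between SNHG16, at 19.9 FPKM or more, and SNHG5, at 13.9 FPKM or less. Neighbours within a tier were not parted by these libraries, but in the third tier SNHG5 (9.22 to 13.9 FPKM) lay wholly above SNHG7 (6.75 to 8.60) and SNHG15 (4.73 to 6.76), and SNHG12 (8.07 to 13.85) wholly above SNHG15. FPKM rest on the length that the authors gave each gene, and count and FPKM together imply 2614 bases for SNHG3, the length of its transcript SNHG3-202, and 672 bases for SNHG8, that of SNHG8-201. For SNHG7 they imply 4343 bases, within 3 of its whole exon set of 4345, and for SNHG15 they imply 3646 bases, where the exon set has 3647. For GAS5, SNHG1, SNHG5, SNHG6, SNHG12 and SNHG16 the implied lengths were 1614, 1582, 1887, 973, 1630 and 3615 bases. These matched neither an annotated transcript nor the whole exon set. Levels per length, and with them the order and the tiers, are therefore on unlike footings between hosts.

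**Figure D1:**
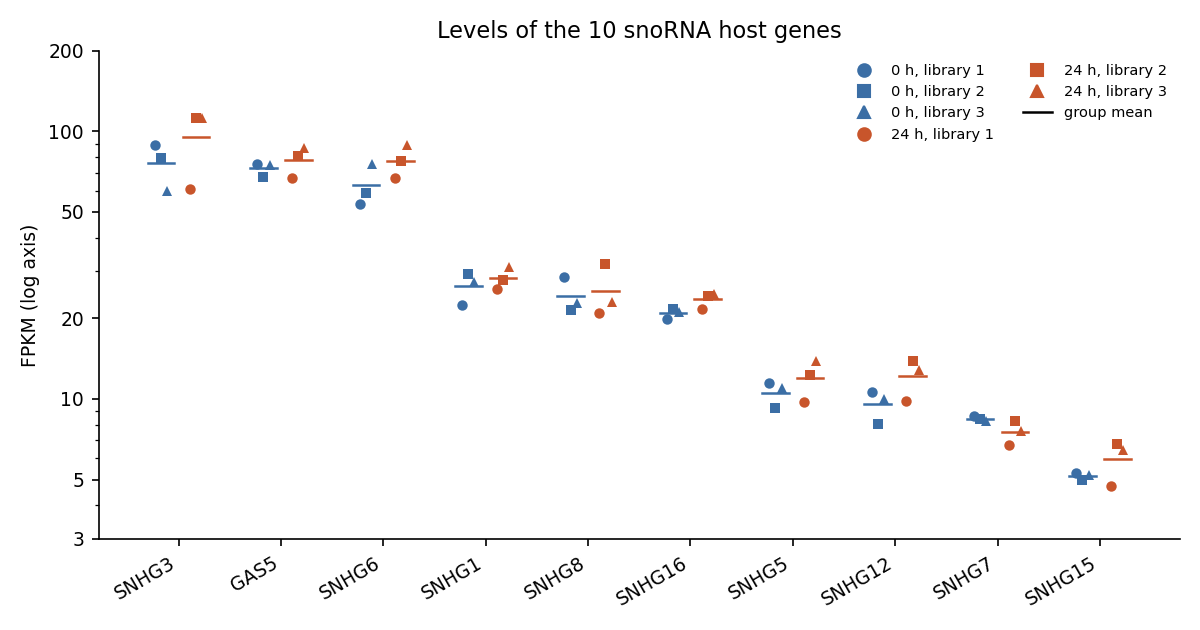
FPKM of the 10 snoRNA host genes on a log axis, ordered by mean, with 1 point per library (blue for 0 h, orange for 24 h, marker shape for the library number) and a bar for the mean of each group. The points form 3 tiers, led by SNHG3, GAS5 and SNHG6 at means of 85.4, 75.5 and 70.2 FPKM.

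Together the 10 hosts took 0.112%, 0.107% and 0.0999% of all counts in the 0 h libraries and 0.0894%, 0.110% and 0.112% in the 24 h libraries. Both the lowest share (replicate 1) and the highest (replicate 3) were thus at 24 h, and replicate 2 lay within the range of 0 h. Counts in single libraries ran from 118, for SNHG12 in 0 h replicate 2, to 3059, for SNHG3 in 24 h replicate 3. All 10 passed the filter on low counts and were tested.

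Of the 10 hosts, 0 were called, where 2.94% of all tested genes were called (2.08% lower and 0.866% higher at 24 h). At an unadjusted p under 0.05 the test took 1 of the 10, SNHG7, against 18.1% of all tested genes. DESeq2 called 0 of the 10, in a fit that called 125 of 13058 genes higher and 213 lower. The fitted log2 change was negative in 7 of the 10, and its median was -0.06 against -0.00 over all tested genes. For 8 of the 10 the 95% interval of the change lay wholly within 0.5 on the log2 scale of no change, which held for 50.02% of all tested genes; SNHG7 and SNHG8 were the exceptions. The signs depend on the scaling: with libraries scaled by the totals that the FPKM imply, the median of all tested genes moved to 0.24, that of the hosts moved to 0.18, and 6 hosts with negative values (GAS5, SNHG1, SNHG5, SNHG8, SNHG15 and SNHG16) turned positive without being called. Relative to the median gene, the median host lay 0.06 lower on the log2 scale under both scalings. A change of totals moves all genes about equally, so the second value is no separate support. In other fits the median host minus the median gene differed. It was 0.0007 with DESeq2, -0.11 without both libraries numbered 3, and 0.11 with limma on log2(FPKM + 1) without a filter.

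**Figure D2:**
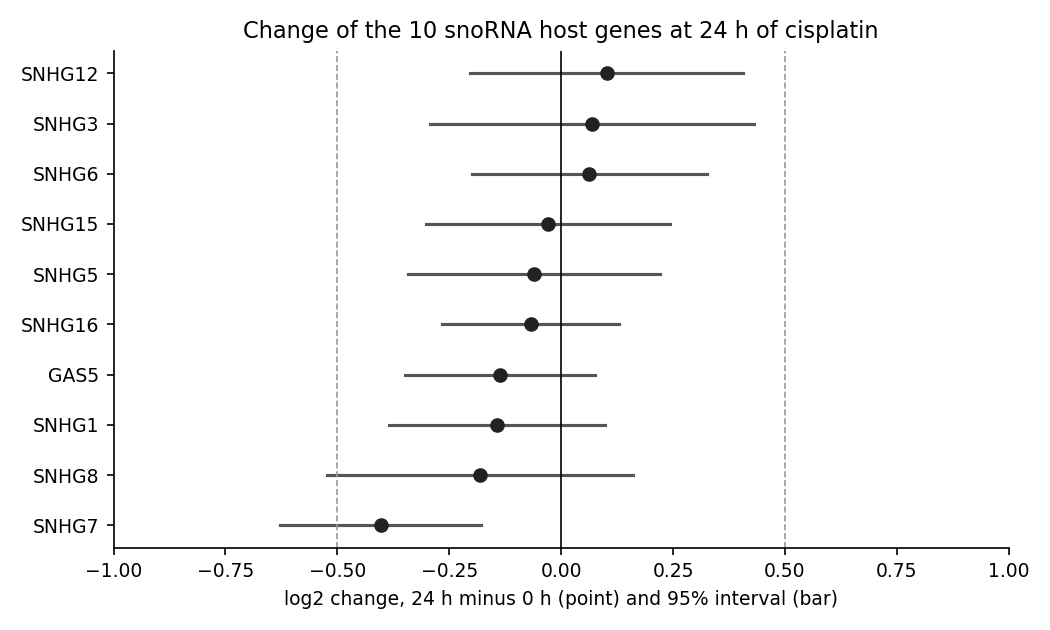
Log2 change at 24 h against 0 h of the 10 snoRNA host genes (points) with the 95% interval of edgeR's fit (bars), n = 3 libraries per group. Dashed lines mark 0.5 on either side of 0; the interval of SNHG7 runs from -0.63 to -0.18, and the intervals of the other 9 hosts include 0.

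GAS5 (ENSG00000234741.7, chromosome 1 from 173863900 to 173868882, minus strand) hosts a string of C/D snoRNAs, and its spliced RNA is known for binding the glucocorticoid receptor. It had 218, 191 and 216 CPM at 0 h and 176, 191 and 201 CPM at 24 h. The lowest library was 24 h replicate 1, and the groups overlapped. The log2 change of GAS5 was -0.14 ± 0.10 (SE; 95% interval -0.35 to 0.08, adjusted p = 0.517), a ratio of 0.910 with an interval from 0.785 to 1.05. The RefSeq annotation of the same genome places 11 snoRNA genes within the span of GAS5, and none of them was analysed here. ZBTB37, a zinc finger gene on the opposite strand that overlaps the start of GAS5, shares no exon bases with it and had a log2 change of -0.25 ± 0.14 (adjusted p = 0.353). For ZBTB37 that value was -0.39 (adjusted p = 0.0437) without 0 h replicate 3, where 6.72% of genes were called lower and 4.18% higher, -0.15 (adjusted p = 0.664) without 0 h replicate 1, and -0.02 (adjusted p = 0.948) with the totals implied by FPKM. GAS5-AS1, the other antisense gene there, had between 0 and 2 counts per library.

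SNHG7 (ENSG00000233016.6, chromosome 9 from 136721366 to 136728184, minus strand) hosts the H/ACA snoRNAs SNORA17A and SNORA17B, which were not analysed here. It had 66.6, 64.3 and 64.3 CPM at 0 h and 47.7, 52.8 and 47.0 CPM at 24 h. Every 24 h library lay below every 0 h library, and the spread within a group was small beside the gap. Such separation was seen in 1 of the 10 hosts and in 22.6% of all tested genes, and separation with 24 h lower in 11.7% of them. The log2 change was -0.40 ± 0.11 (95% interval -0.63 to -0.18), a ratio of 0.756 with an interval from 0.647 to 0.883. Its adjusted p was 0.0516 (unadjusted p = 0.00154, edgeR's quasi-likelihood test), just above the threshold, and 2.97% of tested genes had a smaller p.

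The call of SNHG7 turned on the libraries and on the model used. With all 6 libraries and a block for the replicate number, the log2 change was -0.40 with an adjusted p of 0.00494. That fit called 959 of 13389 genes lower, against 278 without the block. Without 0 h replicate 3 the log2 change was -0.41 with an adjusted p of 0.0170, in a fit that called 6.72% of genes lower, and without both libraries numbered 3 it was -0.38 with an adjusted p of 0.0484, in a fit that called 4.02% of genes lower. Without any 1 of the other 5 libraries, the adjusted p rose to between 0.112 and 0.181. The size changed with the scaling: under the totals implied by FPKM it was -0.16 ± 0.13 (adjusted p = 0.379). Such a change of totals moves all genes about equally. SNHG7 lay 0.40 below the median gene on the log2 scale under both scalings, which is therefore no separate support. SNHG7 minus the median gene was -0.34 with DESeq2 and -0.20 with limma on log2(FPKM + 1) without a filter. In FPKM the 0 h libraries had 8.60, 8.42 and 8.30 and the 24 h libraries 6.75, 8.29 and 7.56, so the groups were parted by 0.01 FPKM only. FAM69B, a protein-coding gene on the opposite strand, shares 1094 exon bases with SNHG7. It had between 0 and 4 counts per library, against 289 to 365 for SNHG7.

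**Figure D3:**
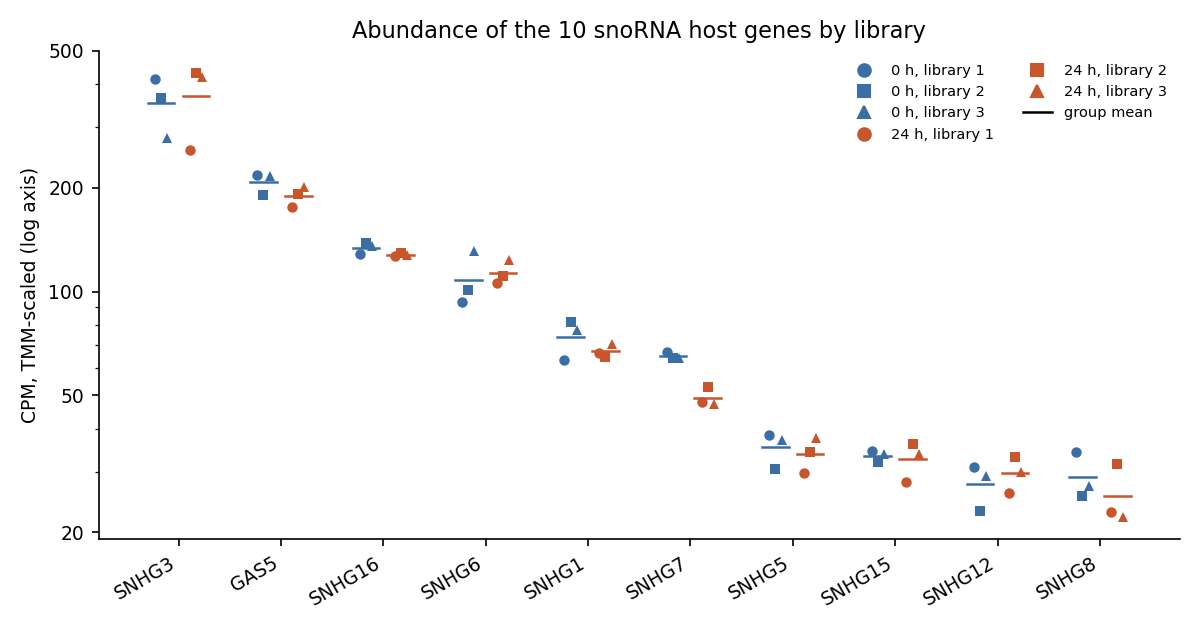
CPM of the 10 snoRNA host genes on a log axis, ordered by median, with 1 point per library and a bar for the mean of each group. The groups overlap for every host but SNHG7, which ran from 64.3 to 66.6 CPM at 0 h and from 47.0 to 52.8 CPM at 24 h.

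**Figure D4:**
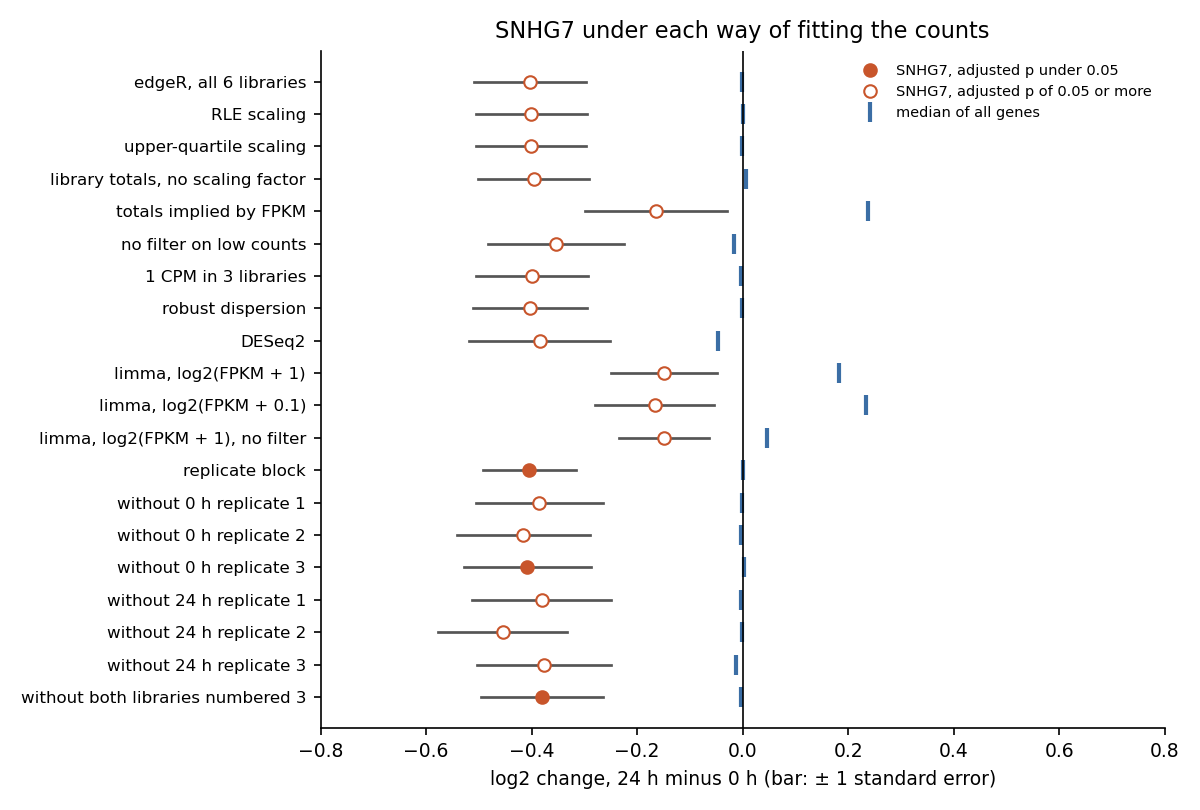
Log2 change of SNHG7 (points, with bars of 1 standard error) under each way of fitting, filled where the adjusted p was under 0.05, beside the median of all genes in that fit (blue tick). The change is negative in all 20 fits, from -0.46 to -0.15, and moves with the median of all genes where libraries are scaled as in the FPKM.

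The hosts of C/D snoRNAs, besides GAS5, are SNHG1, SNHG5, SNHG6 and SNHG16. SNHG1 (ENSG00000255717.6, chromosome 11 from 62851988 to 62855914, minus strand) is the host of SNORD22 and its neighbours. It had 63.2, 81.7 and 77.1 CPM at 0 h and 66.5, 64.4 and 70.4 CPM at 24 h. The lowest library of all was 0 h replicate 1, so the 24 h values lay inside the range of 0 h. The log2 change was -0.14 ± 0.11 (95% interval -0.38 to 0.10, adjusted p = 0.556).

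SNHG5 (ENSG00000203875.10, chromosome 6 from 85660950 to 85678748, minus strand) carries SNORD50A and SNORD50B. It had 38.5, 30.6 and 37.1 CPM at 0 h and 29.9, 34.2 and 37.6 CPM at 24 h, and the groups covered nearly the same range. The change of SNHG5 on the log2 scale was -0.06 ± 0.13 (95% interval -0.34 to 0.22, adjusted p = 0.860).

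SNHG16 (ENSG00000163597.14, chromosome 17 from 76557766 to 76565348, plus strand), host of the SNORD1 family, had 128, 138 and 136 CPM at 0 h and 127, 129 and 128 CPM at 24 h. These were the most even values of the 10 hosts at 24 h, and the log2 change was -0.07 ± 0.09 (95% interval -0.27 to 0.13, adjusted p = 0.760). SNHG6 (ENSG00000245910.8, chromosome 8 from 66921684 to 66926398, minus strand), host of SNORD87, had 93.1, 101 and 131 CPM at 0 h and 106, 111 and 123 CPM at 24 h. Library 3 was the highest of its group at both times. Its log2 change was 0.06 ± 0.12 (95% interval -0.20 to 0.33, adjusted p = 0.838). MCMDC2, a protein-coding gene on the opposite strand, shares 365 exon bases with SNHG6 and had between 10 and 18 counts per library.

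The hosts of H/ACA snoRNAs, besides SNHG7, are SNHG3, SNHG8 and SNHG15. SNHG3 (ENSG00000242125.3, chromosome 1 from 28505980 to 28510892, plus strand) had the highest CPM, which are not scaled to length, in every library, and the largest SD of CPM at both times; per length it lay below GAS5 and SNHG6 in 0 h replicate 3 and 24 h replicate 1. It had 413, 365 and 279 CPM at 0 h and 258, 430 and 419 CPM at 24 h. The lowest value at each time, in 0 h replicate 3 and 24 h replicate 1, stood well below the other two, and both groups covered about the same range. The log2 change was 0.07 ± 0.17 (95% interval -0.29 to 0.43, adjusted p = 0.877). SNHG3 lies on the same strand as the start of RCC1, the exchange factor of the GTPase Ran, and the genes share 242 exon bases, so reads there may be split or pooled between them. RCC1 had a log2 change of -0.15 ± 0.10 (adjusted p = 0.478).

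SNHG8 (ENSG00000269893.6, chromosome 4 from 118278709 to 118279823, plus strand), host of SNORA24, had 34.3, 25.5 and 27.4 CPM at 0 h and 22.9, 31.5 and 22.2 CPM at 24 h. In each group 1 library was high and the other two were close together, and the groups overlapped. The fit gave a log2 change of -0.18 ± 0.16 (95% interval -0.52 to 0.16, adjusted p = 0.605). SNHG15 (ENSG00000232956.8, chromosome 7 from 44983023 to 44986961, minus strand), host of SNORA9 and known as a short-lived RNA, had 34.5, 32.0 and 33.7 CPM at 0 h and 28.0, 36.2 and 33.7 CPM at 24 h. Both the lowest and the highest library were at 24 h. SNHG15 had a log2 change of -0.03 ± 0.13 (95% interval -0.30 to 0.24, adjusted p = 0.931).

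SNHG12 (ENSG00000197989.13, chromosome 1 from 28578538 to 28583132, minus strand) is, in GENCODE 29, the host among the 10 that holds both classes, SNORA61, SNORA44 and SNORA16A of the H/ACA class and SNORD99 of the C/D class. It had 30.9, 23.1 and 29.1 CPM at 0 h and 26.1, 33.1 and 29.9 CPM at 24 h, with the lowest value in 0 h replicate 2 and overlapping groups. The host's log2 change was 0.10 ± 0.14 (95% interval -0.20 to 0.41, adjusted p = 0.770). TRNAU1AP, which acts in selenocysteine synthesis, meets SNHG12 from the opposite strand with 8 shared exon bases and had a log2 change of 0.23 ± 0.12 (adjusted p = 0.311).

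The count table also has rows for snoRNAs inside the hosts. GENCODE 29 lists 25 such entries on the hosts' strand, of which 15 have a row, 13 of them with at least 10 counts over the 6 libraries, and 6 passed the filter and were tested. None of the 6 was called. A row named SNORD50A also exists on the chromosome of SNHG5, within which RefSeq places that snoRNA, and it was not analysed here. A mature snoRNA and the unspliced host cover the same bases, so a count in such a row does not tell them apart. Annotated exons of the host cover some as well. SNORA61 lies in an exon of 4 of 17 SNHG12 transcripts, SNORA44 and SNORA16A of 3 each, and SNORA24 of 1 of 5 SNHG8 transcripts. C/D rows were sparse: those inside SNHG1 (2 rows of SNORD22, and 1 each of SNORD26, SNORD27, SNORD28 and SNORD30) had from 2 to 10 counts per library, SNORD50B had from 1 to 6, and the rows of SNORD87 and SNORD1A held 8 and 2 counts in all. Values of these rows are too few for a comparison at this depth.

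SNORA73B, which takes part in the early cleavage of pre-rRNA, was the most abundant snoRNA row. It lies in SNHG3 (chromosome 1, 28508559 to 28508762) outside every annotated exon of the host. It had 240, 220 and 169 CPM at 0 h and 117, 208 and 218 CPM at 24 h, and the same libraries were low as for its host. Its log2 change was -0.21 ± 0.18 (95% interval -0.60 to 0.18, adjusted p = 0.601). The related SNORA73A, which lies in the first exon of SNHG3-202, was not analysed here, and its reads may add to the counts of the host.

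SNORA61 (chromosome 1, 28579764 to 28579893) had 8.37, 15.3 and 9.18 CPM at 0 h and 5.77, 6.95 and 5.76 CPM at 24 h. Every 24 h library lay below every 0 h library, and 0 h replicate 2 was far above the rest. Groups without overlap were seen in 22.6% of all tested genes, and with 24 h lower in 11.7%. The log2 change was -0.82 ± 0.24 (95% interval -1.33 to -0.32, adjusted p = 0.0791), from 35 to 78 counts per library. That call changed with the model and with the libraries. With a block for the replicate number the adjusted p was 0.00952 (log2 change -0.81), with 959 of 13389 genes called lower. With no filter on low counts it was 0.0193 (-0.77), with 395 of 28565 called lower, and with DESeq2 it was 0.166 (-0.81). Without 0 h replicate 1 the adjusted p was 0.0466 (log2 change -0.98, with 1.53% of genes called lower). Without 0 h replicate 3 it was 0.00431 (-0.94, with 6.72% called lower), and without 0 h replicate 2 it was 0.401 (-0.52). Without both libraries numbered 3 it was 0.0478 (-0.89, with 4.02% called lower).

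SNORA44 (chromosome 1, 28580381 to 28580512) had 3.99, 6.66 and 3.71 CPM at 0 h and 2.97, 3.04 and 1.78 CPM at 24 h. The groups again did not overlap, as in 22.6% of all tested genes, and 0 h replicate 2 was again the highest. Its log2 change was -0.88 ± 0.33 (adjusted p = 0.158), from 13 to 34 counts per library. With the replicate block it was -0.88 (adjusted p = 0.0460, with 959 of 13389 genes called lower). Without 0 h replicate 3 it was -1.04 (adjusted p = 0.0338, with 6.72% of genes called lower), and without 0 h replicate 2 it was -0.58 (adjusted p = 0.561). The other rows inside SNHG12 overlapped between the groups: SNORA16A had a log2 change of 0.09 ± 0.37 (adjusted p = 0.921) and SNORD99 one of -0.92 ± 0.48 (adjusted p = 0.324). SNORA24, inside SNHG8, had one of -0.31 ± 0.35 (adjusted p = 0.695).

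**Figure D5:**
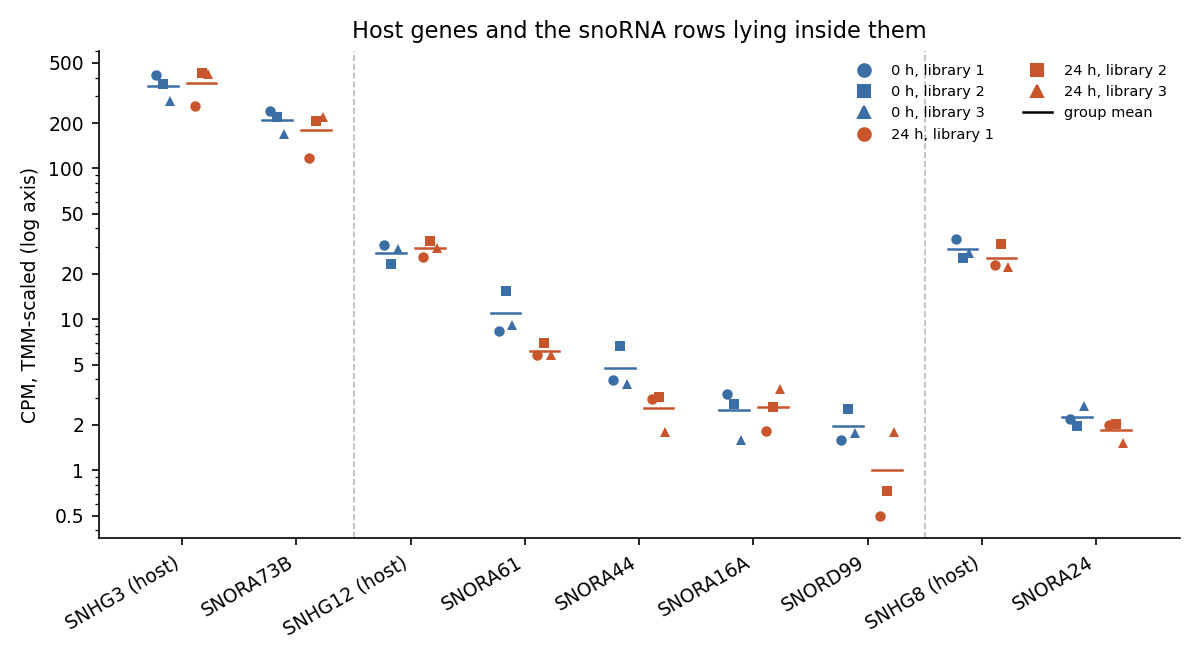
CPM on a log axis of 3 hosts and of the 6 tested snoRNA rows that lie inside them, with 1 point per library and a bar for the mean of each group; dashed lines part the hosts. The groups do not overlap for SNORA61 and SNORA44, at log2 changes of -0.82 and -0.88, while the points of their host SNHG12 overlap. Of all tested genes, 22.6% had groups without overlap.

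The 10 hosts did not share 1 pattern over the 6 libraries. The mean of their centred log2 CPM was 0.09, -0.02 and 0.06 at 0 h and -0.18, 0.06 and 0.01 at 24 h, so the lowest point was 24 h replicate 1. As a description over 6 libraries that share their scaling factors, SNHG15 (Pearson r = 0.95), GAS5 (0.85), SNHG5 (0.80) and SNHG8 (0.70) lay nearest to that mean, which holds them too. SNHG3 (0.63), SNHG12 (0.61) and SNHG7 (0.57) came next, and SNHG16 (0.22), SNHG6 (0.11) and SNHG1 (-0.04) did not follow it. Among 10813 other genes with a mean of at least 5 CPM, those with the highest r to that mean were POLR1D (0.98), a subunit of RNA polymerases I and III, AFMID (0.98), an enzyme of tryptophan breakdown, ZNF525 (0.97), COX7A2L (0.96), a factor of respiratory supercomplexes, and OSGEP (0.96), an enzyme of tRNA modification. None of these 5 was called.

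Genes that share a biology with the hosts were read from 5 lists, and none of their tested members was called. In each list the share of members with an unadjusted p under 0.05 was below the 18.1% of all tested genes. Of 15 tested other noncoding hosts, 0 rose and 0 fell, 0 had an unadjusted p under 0.05, and the median log2 change was -0.01. The smallest p belonged to ZFAS1 (-0.15 ± 0.10, adjusted p = 0.457), SNHG9 (0.51 ± 0.36, adjusted p = 0.487) and SNHG18 (-0.29 ± 0.23, adjusted p = 0.552). SNHG9, with the widest error of the 3, had only 1.59 to 4.92 CPM. Of 31 tested protein-coding hosts outside the ribosomal proteins, 0 rose and 0 fell, 3 had an unadjusted p under 0.05, and the median was -0.02. These 3 were CNOT1, the scaffold of the main deadenylase (-0.29 ± 0.10, adjusted p = 0.150), SLC25A3, the mitochondrial phosphate carrier (0.28 ± 0.10, adjusted p = 0.160), and NOP56, a core protein of C/D particles (0.26 ± 0.10, adjusted p = 0.189). The groups did not overlap for any of the 3, with CNOT1 lower and SLC25A3 and NOP56 higher at 24 h. Groups without overlap were seen in 22.6% of all tested genes, and picking the 3 by their p favours them. NOP56 was called without 0 h replicate 3 (0.31, adjusted p = 0.0450, with 4.18% of genes called higher), and without 0 h replicate 2 it was 0.18 (adjusted p = 0.591).

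The proteins that build snoRNA particles were tested as 18 genes, of which 0 rose, 0 fell and 2 had an unadjusted p under 0.05, with a median of -0.01. Besides NOP56, the smallest p belonged to NUFIP1, an assembly factor of C/D particles (8.77, 11.6 and 9.71 CPM at 0 h and 11.5, 16.1 and 14.7 CPM at 24 h, log2 change 0.50 ± 0.19, adjusted p = 0.164), and NHP2, a core protein of H/ACA particles (0.23 ± 0.12, adjusted p = 0.302). Of 21 tested factors of nonsense-mediated decay, 0 rose and 0 fell, 1 had an unadjusted p under 0.05, and the median was -0.04. That 1 was SMG6, the endonuclease of the pathway, with 48.4, 44.5 and 25.2 CPM at 0 h and 31.8, 30.1 and 27.8 CPM at 24 h. Its 0 h replicate 3 lay below all the 24 h libraries. The log2 change was -0.39 ± 0.18 (adjusted p = 0.273) with that library and -0.63 (adjusted p = 0.000505) without it, and -0.59 (adjusted p = 0.00746) without both libraries numbered 3. Without 0 h replicate 1 it was -0.21 (adjusted p = 0.611), and without 0 h replicate 2 it was -0.30 (adjusted p = 0.628). SMG9 (-0.25 ± 0.12, adjusted p = 0.278) and SMG1 (-0.21 ± 0.11, adjusted p = 0.299), parts of the kinase complex of the pathway, followed.

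Of 16 tested TOP mRNAs outside the ribosomal proteins, 0 rose and 0 fell, 0 had an unadjusted p under 0.05, and the median was 0.00. The members with the smallest p were EIF4B (-0.14 ± 0.10, adjusted p = 0.477) and EIF3F (0.14 ± 0.10, adjusted p = 0.479), both translation initiation factors, and TPT1, the translationally controlled tumour protein (-0.15 ± 0.12, adjusted p = 0.544). Over the 5 lists, medians ran from -0.04 to 0.00, against -0.00 over all tested genes and -0.06 over the 10 hosts. With libraries scaled by the totals that the FPKM imply, 17.6% of all tested genes were called higher, and so were 3 protein-coding hosts, 6 proteins of snoRNA particles, 1 decay factor, 1 TOP mRNA and 0 of the 10 hosts.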

How the data were processed

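The deposited read counts are whole numbers for 28565 genes in 6 libraries, and the deposited FPKM, values per length that the authors made from them, cover 28561 genes. The submitters' processing notes name the build GRCh38 and the tools TopHat2, edgeR and bcl2fastq. Tool versions, the counter, strand use and the rule for reads with several positions are not given in these sources, so reads of overlapping genes and of snoRNAs and their hosts are uncertain. Identifiers were matched without version to GENCODE 29 (27925 genes, 97.8%), which gave positions, transcripts and sequences.

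Libraries of 24 h and 0 h, 3 each, were set against each other in the quasi-likelihood test of edgeR 4.0.16 under R 4.3.3, after filterByExpr at its defaults and TMM scaling, without covariates and with Benjamini-Hochberg adjustment over 13389 genes. Errors of fold changes are standard errors of the fit, and CPM use TMM-scaled totals. The functions were tested on simulated data. Alternatives were other scalings, filters and dispersions, DESeq2 1.42.0, limma 3.58.1 on log2(FPKM + 1) and log2(FPKM + 0.1), a replicate block, and fewer libraries. Genes named are the 10 hosts, the 3 with the smallest p in each list, the tested snoRNA rows and those with at least 10 counts, the 5 genes most like the hosts' mean pattern, and genes that overlap a host. The hosts, lists and tests were chosen with earlier results of these data known. The titles do not say what a replicate number marks, so the main test did not pair libraries by number. Deviations of libraries with the same number had correlations of 0.241, -0.020 and 0.422 for numbers 1, 2 and 3. The highest correlation of each 0 h library with a 24 h library of another number was 0.099, 0.226 and -0.068. Numbers 1 and 3 thus matched best with their own number and number 2 did not, so a pairing remains possible.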

Additional observations from a re-analysis of the deposited data

How the results depend on the processing

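Over 19 alternatives, the log2 changes of the 9 hosts other than SNHG7 were never called. SNHG7 was negative in all 19 and called in 3: with the replicate block (-0.40, adjusted p = 0.00494, 1 host called lower; the other hosts' calls did not change), with 0 h replicate 3 left out (-0.41), and without both libraries numbered 3 (-0.38, 1 host called lower). Leaving out 1 library gave SNHG7 values from -0.46 to -0.38 and 0 to 1 hosts called lower. Of 190 values of the hosts, 35 had another sign than in the report with neither called, 28 of them now positive, and 0 called values changed sign; the cause was not tested.

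Over all genes, higher and lower calls were 116 and 278 in the report, 739 and 959 with the replicate block, 306 and 539 without both libraries numbered 3, 345 higher with no filter on low counts, 2354 higher and 195 lower with totals implied by FPKM, 685 and 82 with limma on log2(FPKM + 1), 625 and 74 on log2(FPKM + 0.1), and 22 and 10 with no filter on FPKM. Leaving out 1 library gave 21 to 574 higher and 92 to 923 lower. Genes tested numbered 13389 in the report, with the replicate block and with totals implied by FPKM. They numbered 13415 without both libraries numbered 3, and from 13617 to 13727 with 1 library left out. With no filter on low counts 28565 were tested, in the first 2 limma fits 14151, and with no filter on FPKM 28561. Protein-coding hosts called higher were 3 with totals implied by FPKM, 2 and 1 with the first 2 limma fits, 2 with the replicate block (and 1 lower), and 0 to 1 with a library left out. Proteins of snoRNA particles called higher were 6, 1 (log2(FPKM + 1)), 2 (block) and 0 to 1. Decay factors had 1 higher with totals implied by FPKM, 1 lower without both libraries numbered 3, and 0 to 1 in either direction with a library left out. TOP mRNAs had 1 higher with totals implied by FPKM. Of the genes named in the report, SLC25A3, NOP56, NUFIP1, NHP2, EIF3F and TRNAU1AP were called higher with totals implied by FPKM, CNOT1 was called lower with the replicate block (-0.29), and SMG6 was the decay factor called lower. Rows of snoRNAs called lower were 1 with no filter on low counts (395 of 28565 genes called lower) and 2 with the replicate block (959 of 13389). They were 1 without both libraries numbered 3 (539 of 13415), and 0 to 2 with a library left out (92 to 923 genes called lower). Of the 15 snoRNA rows, 9 had too few counts to be tested.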

Other observations

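Ratios of a snoRNA row's counts to its host's counts within the same library do not depend on library scaling. They were computed for the 6 tested snoRNA rows after their values were seen. For SNORA73B in SNHG3 the ratio was 58.0%, 60.2% and 60.6% at 0 h and 45.1%, 48.3% and 52.0% at 24 h (59.6 ± 1.41% and 48.5 ± 3.43%, mean ± SD, n = 3 each). Every 24 h library lay below every 0 h library, although neither SNORA73B nor SNHG3 was parted between the groups on its own. Of all tested genes 22.6% had groups without overlap, and the share over ratios of other genes was not computed. SNORA73A, SNORA73B's near relative, lies in an exon of the host's reference transcript and was not analysed here, and how reads were shared between them was not tested.

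For SNORA61 in SNHG12 the ratio was 27.1%, 66.1% and 31.5% at 0 h and 22.2%, 21.0% and 19.3% at 24 h, and 0 h replicate 2 stood far above the rest. For SNORA44 in SNHG12 it was 12.9%, 28.8% and 12.7% at 0 h and 11.4%, 9.17% and 5.96% at 24 h. The ratios of SNORA61 and SNORA44 share the counts of SNHG12, which were lowest in 0 h replicate 2, so they are not independent. For SNORA73B, SNORA61 and SNORA44 the exact two-sided permutation p was 0.1, the smallest that 3 libraries against 3 can give. It was 0.2 after Benjamini-Hochberg adjustment over the 6 ratios. A p under 0.05 was out of reach in this design, whatever the values. The other 3 ratios overlapped between the groups, SNORA16A and SNORD99 to SNHG12 (exact permutation p = 0.9 and 0.2) and SNORA24 to SNHG8 (exact permutation p = 0.7). SNORA61, SNORA44, SNORA16A and SNORA24 lie in exons of some annotated host transcripts, so their reads may add to the host's counts. How reads were shared was not tested.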
